A study of Mus musculus with 6 samples.

Results

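Selenoprotein genes are read through an in-frame UGA codon, and the 6 genes described here are *Gpx1*, *Gpx4*, *Txnrd1*, *Txnrd2*, *Sephs2* and *Msrb1*. They were taken by name from the 23698 genes counted in each library, and each name matched exactly 1 gene. The libraries came from cultured squamous cell carcinoma cells (SCC), which are mouse keratinocytes from P0 back skin carrying HrasG12V and a deletion of both floxed copies of *Tgfbr2*, at passage 10 to 15. SCC was measured as 1 ribosome profiling library (Ribo-seq), which counts the mRNA fragments protected by ribosomes, and as 2 RNA-seq replicates. The study examined how different 5′ ends of mRNAs relate to their translation, and these libraries allow footprints and RNA to be compared gene by gene within SCC. Counts on exons summed to 3549555 in the Ribo-seq library. The RNA-seq sums were 10707930 for replicate 1 and 14003713 for replicate 2.

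Selenocysteine is the amino acid in which selenium takes the place of the sulfur of cysteine, and it sits in the active site of many redox enzymes. Its codon is UGA, which elsewhere ends translation, and a hairpin in the 3′UTR of the same mRNA, the SECIS element, recruits SECIS-binding protein, a dedicated elongation factor and the selenocysteine tRNA to insert the residue. In keratinocytes, glutathione peroxidases and thioredoxin reductases are part of the defence against peroxides, and *Gpx4* in particular limits lipid peroxidation.

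The 6 recoded codons are shown first because they are what sets these genes apart. Each line gives 12 bases before and 15 bases after the codon on the mRNA strand of the GENCODE M21 transcript, with the UGA codon in capitals as TGA.
Gpx1: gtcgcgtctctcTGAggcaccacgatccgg
Gpx4: gtggcctcgcaaTGAggcaaaactgacgta
Txnrd1: cagtctggctgcTGAggttaagccccagtg
Txnrd2: gtgactggttgcTGAggctaagtcaccatc
Sephs2: ggcatgaagggcTGAggctgcaaggtcccc
Msrb1: caatcaagattcTGAatatttagcagctca
The base that follows the codon is G in 5 of these genes and A in *Msrb1*. In *Txnrd1* and *Txnrd2* only 1 codon stands between the recoded TGA and the TAA that ends translation, so both are visible in the printed window.

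In *Gpx1*, which encodes the cytosolic glutathione peroxidase and lies at chr9:108338903-108340343 on the + strand of GRCm38, selenocysteine is codon 47 of 201. In *Gpx4*, the peroxidase that reduces lipid hydroperoxides in membranes, at chr10:80047166-80056439 on the + strand, it is codon 73 of 197. In *Sephs2*, the selenophosphate synthetase that supplies activated selenium, at chr7:127271879-127274055 on the - strand, it is codon 63 of 452. These 3 genes carry the codon early, with 76.6%, 62.9% and 86.1% of the coding sequence (CDS) after it.

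In the thioredoxin reductases the codon is the last but 1. *Txnrd1*, the cytosolic enzyme, at chr10:82833951-82897712 on the + strand, has it at codon 498 of 499, and *Txnrd2*, the mitochondrial enzyme, at chr16:18426384-18479073 on the + strand, at codon 526 of 527. *Msrb1*, which reduces oxidised methionine, at chr17:24736642-24742778 on the + strand, lies between these groups, with codon 95 of 116 and 18.1% of its CDS after it. The codon stands in the last exon in *Txnrd1* and in the only exon of *Sephs2*. In *Gpx1*, *Gpx4*, *Txnrd2* and *Msrb1* the last exon junction of the mRNA follows it at 105, 342, 83 and 34 nt.

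**Figure D1:**
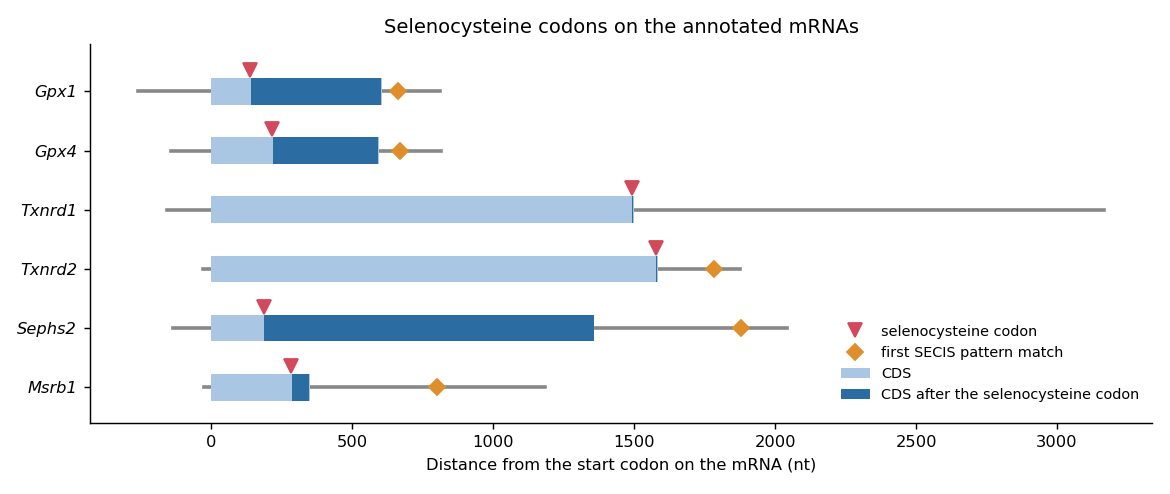
The annotated mRNAs of the 6 genes drawn to scale, with distance from the start codon in nt on the x axis, UTRs as grey lines, the CDS as light bars, the CDS after the selenocysteine codon as dark bars, that codon as a triangle and the first match to the SECIS pattern as a diamond. The codon is early in *Gpx1*, *Gpx4* and *Sephs2* and the last but 1 in *Txnrd1* and *Txnrd2*, and 5 of the 6 mRNAs hold a pattern match.

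A loose pattern for the SECIS core (ATGA, 10 to 13 bases, AA, 18 to 27 bases, TGA, on the mRNA strand only) matched the annotated 3′UTR of 5 of the 6 genes, each at 1 place. The stretch from ATGA to AA is printed, with these fixed letters of the pattern in capitals, and the TGA further on is not shown.
Gpx1: ATGAtggtgtttcctctAA
Gpx4: ATGAaggtctgcctgAA
Txnrd2: ATGAtggcctgggcagAA
Sephs2: ATGAtgtctctccctctAA
Msrb1: ATGAtctgctctggtcAA
The match began 58 nt after the stop codon in *Gpx1*, 76 nt in *Gpx4*, 201 nt in *Txnrd2*, 521 nt in *Sephs2* and 449 nt in *Msrb1*. Among 3′UTRs of other genes, taken over the same number of bases, the share with a match was 3.32% at the length of *Gpx1*, 3.65% at that of *Gpx4* and 5.10% at that of *Txnrd2*. At the longer lengths of *Sephs2* and *Msrb1* it was 12.95% and 15.8%. These letters did not occur in the 1667 nt of the *Txnrd1* 3′UTR, a length at which 29.6% of other 3′UTRs had a match, and a match describes letters only.

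The counted CDS of *Gpx1*, *Txnrd2*, *Sephs2* and *Msrb1* was 603, 1581, 1356 and 348 nt, the same as the annotated CDS through the selenocysteine codon to the stop codon. None of these 4 was therefore counted only as far as UGA, which would leave 138 nt in *Gpx1*, 186 nt in *Sephs2* and 282 nt in *Msrb1*. For *Txnrd1* the counted CDS was 1803 nt, 98.0% of the positions annotated as CDS in any of its transcripts. For *Gpx4* it was 495 nt, 58.7% of those positions, where the CDS of the annotated transcript has 591 nt. For *Txnrd2* the share by this measure was 82.6%. The counted 3′UTR of *Msrb1* was 472 nt, where the annotated transcript has 834 nt. Each value is a sum over the CDS, so footprints before and after UGA cannot be told apart. The counted 3′UTR of *Txnrd2* and *Sephs2* was 296 and 685 nt, 3 nt more than annotated after the stop codon, so the stop codon itself was counted with the 3′UTR.

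*Gpx1* had by far the highest level of the 6 genes. RPKM, the usual measure of level, is here the count per kb of counted length, scaled to library size by the sum of exon counts. *Gpx1* had 890.3 footprints on its CDS (416 RPKM), and 1416 and 2276 RNA counts on exons in RNA-seq replicates 1 and 2 (126 and 155 RPKM). Its mean RNA level was 141 ± 20.5 RPKM (SD, n = 2), above 95.3% of the 9863 genes that passed the filters. These filters asked for an RPKM above 1 in both RNA-seq replicates, a base mean above 25 (the mean count over the 3 libraries after scaling by size factors) and footprints on a counted CDS, and all 6 genes passed.

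*Gpx4* ranked higher in footprints than in RNA. It had 157 footprints on its CDS (89.2 RPKM) and 122 and 184 RNA counts on exons (11.7 and 13.4 RPKM). Its footprint level stood above 83.1% of all passing genes and its mean RNA level of 12.6 ± 1.21 RPKM (SD, n = 2) above 43.3%. A transcribed processed pseudogene, *Gpx4-ps2*, matches 79.5% of the *Gpx4* mRNA at 99.7% identity over 762 nt, and a further pseudogene matches 535 nt at 95.1%. Of the 975 counted exon positions, 293 belonged to neither the CDS nor a UTR, and these held 0 RNA counts in both replicates. How reads that match both the gene and a copy were treated is not given in the sources used here, so the values of *Gpx4* are uncertain.

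The thioredoxin reductases differed in level from each other. *Txnrd1* had 532 footprints on its CDS (83.2 RPKM) and 1153 and 1411 RNA counts on exons (26.8 and 25.1 RPKM). *Txnrd2* had 68.7 footprints on its CDS (12.2 RPKM) and 179 and 249 RNA counts on exons (8.77 and 9.32 RPKM). The mitochondrial enzyme was thus the lowest of the 6 genes in both kinds of library, and its replicates did not overlap with those of *Txnrd1*.

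*Sephs2* and *Msrb1* had RNA levels close to that of *Txnrd1* and fewer footprints. *Sephs2* had 137 footprints on its CDS (28.5 RPKM) and 599 and 763 RNA counts on exons (25.6 and 24.98 RPKM). *Msrb1* had 60.4 footprints on its CDS (48.9 RPKM) and 242 and 360.4 RNA counts on exons (25.5 and 29.0 RPKM). Their mean RNA levels of 25.3 ± 0.472 and 27.3 ± 2.54 RPKM and that of *Txnrd1*, 25.9 ± 1.21 RPKM (SD, n = 2 each), did not differ beyond the spread between replicates. An uncurated gene on the opposite strand, *Gm44729*, covers 792 nt of the *Sephs2* mRNA from its 5′ end, and the sources do not say whether counting used strand.

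**Figure D2:**
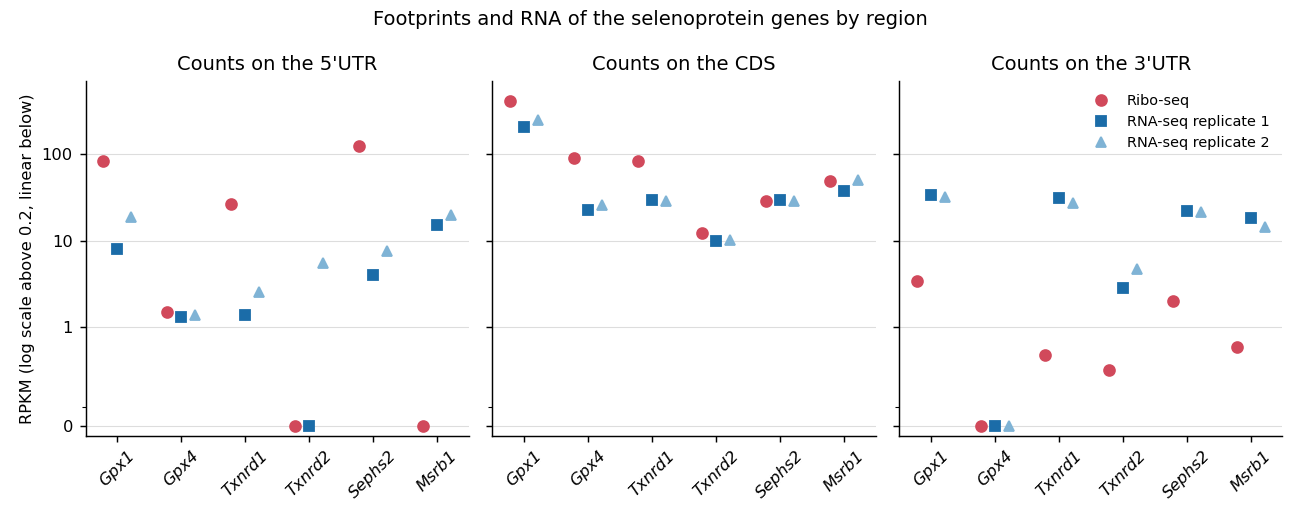
RPKM of the 6 genes on the 5′UTR, CDS and 3′UTR, with the Ribo-seq library as circles and RNA-seq replicates 1 and 2 as squares and triangles, on an axis that is logarithmic above 0.2 and linear below. On the 3′UTR the footprints of 5 genes lie below their RNA and *Gpx4* is at 0 in all libraries, while on the 5′UTR the footprints of *Gpx1*, *Txnrd1*, *Sephs2* and, narrowly and with fewer than 1 footprint, *Gpx4* lie above their RNA.

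Translational efficiency was the log2 ratio of footprint RPKM on the CDS to mean RNA-seq RPKM on exons, given relative to the median of all passing genes, so that 0 is the median gene and 1 is 2-fold above it. With 1 Ribo-seq library no test was possible, and the SD below covers only the 2 RNA-seq replicates, which may be technical since nothing states that they are separate cultures. *Gpx4* was at 2.48 ± 0.15, *Txnrd1* at 1.34 ± 0.06 and *Gpx1* at 1.22 ± 0.22. *Msrb1* was at 0.50 ± 0.15, *Txnrd2* at 0.09 ± 0.07 and *Sephs2* at -0.17 ± 0.02. Of the 6 genes 3 lay above 1, where 20.8% of all passing genes lay, and 0 lay below -1, where 21.1% lay. The order thus ran from the lipid hydroperoxide reductase down to the selenophosphate synthetase, with the cytosolic thioredoxin reductase above the mitochondrial enzyme.

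Neighbours in this order were not all distinct. The 95% Poisson intervals of the footprint counts, which cover counting error only, put *Txnrd1* at 1.21 to 1.46 and *Gpx1* at 1.12 to 1.32, so these 2 genes overlap. They put *Txnrd2* at -0.27 to 0.43 and *Sephs2* at -0.43 to 0.07, so by counting error neither can be told from the median gene or from the other. *Msrb1*, at 0.11 to 0.86, overlaps *Txnrd2* but not *Txnrd1*. *Gpx4*, at 2.25 to 2.71, stands above the other 5 genes, with the doubt about its copies as given above.

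The median over the 6 genes was 0.86, against 0 over all passing genes by construction. Without *Gpx4*, a choice made after its copies were seen, it was 0.50. When the median of all genes was taken over the 4829 genes whose counts reached 100 in each of the 3 libraries, it lay 0.39 higher. *Gpx1* and *Txnrd1* were then at 0.83 and 0.95, only *Gpx4* of the 6 genes lay above 1, at 2.09, and 18.8% of those 4829 genes did. *Txnrd2* changed side of the median gene under that choice, to -0.30, while *Sephs2* lay further below it, at -0.57. *Sephs2* changed side, to 0.15, when counts were not divided by counted length. That last choice also placed *Txnrd2* at 0.84 and *Msrb1* at 0.17, which reverses their order.

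Footprints on the CDS were next set against RNA on the same CDS positions, which removes unequal coverage of the UTRs. *Gpx4* was at 1.83 ± 0.13, *Txnrd1* at 1.45 ± 0.03 and *Gpx1* at 0.82 ± 0.20. *Txnrd2* was at 0.22 ± 0.01, *Msrb1* at 0.11 ± 0.30 and *Sephs2* at -0.09 ± 0.05. On this scale 2 of the 6 genes, *Gpx4* and *Txnrd1*, lay above 1, beside 18.3% of 9862 genes, and 0 lay below -1, beside 19.5%. Relative to the median of the 4829 genes, *Txnrd2* and *Msrb1* lay on the other side of the median gene, at -0.13 and -0.24. *Sephs2* was then at -0.44. All 6 genes differed from their value on the exon scale by more than their SD on each scale, with *Gpx1*, *Gpx4* and *Msrb1* lower and *Txnrd1*, *Txnrd2* and *Sephs2* higher. In *Gpx4* the counted exon holds the 293 nt without RNA counts, which lowers its exon RPKM and does not enter the CDS ratio. The copy *Gpx4-ps2* matches nt 198 to 959 of the mRNA and so most of the CDS. The doubt about copies therefore holds for the CDS ratio too.

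On the CDS ratio *Msrb1* was the gene whose value depended most on the replicate, while in translational efficiency it was *Gpx1*, at 1.38 with replicate 1 and 1.07 with replicate 2. The CDS RNA of *Msrb1* was 37.1 RPKM in replicate 1 and 50.5 RPKM in replicate 2, and the CDS ratio was 0.34 with the first and -0.09 with the second. The log2 difference between replicates, 0.45 on the CDS, was above that of 96.1% of genes. On its 3′UTR the order was the opposite, with 18.3 and 14.6 RPKM. *Gpx1* also had more CDS RNA in replicate 2, 251 against 205 RPKM.

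**Figure D3:**
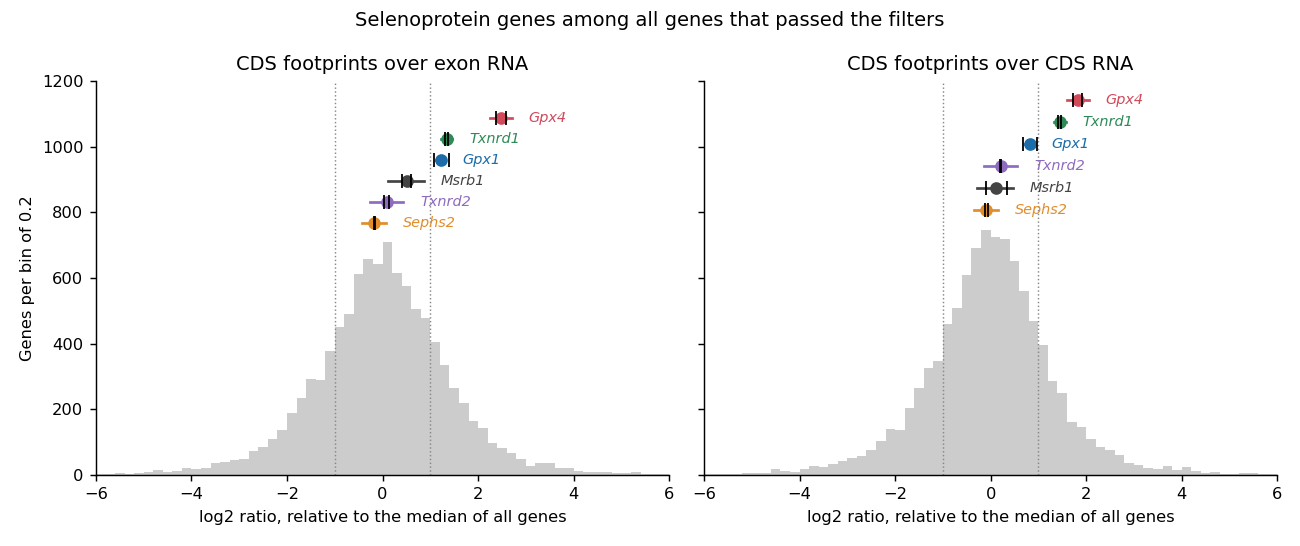
Histograms of all passing genes (9863 on the left, 9862 on the right) by log2 ratio of CDS footprints to RNA relative to the median gene, with exon RNA on the left and CDS RNA on the right, bins of 0.2, and 21 and 19 genes beyond the axis. Circles are the selenoprotein genes, lines their 95% Poisson intervals and ticks the value with each RNA-seq replicate, placed above the bars for legibility, and *Gpx4* and *Txnrd1* lie to the right of the dotted line at 1 in both panels.

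Footprints from the annotated stop codon on were compared next, which concerns the end of the CDS. In *Gpx1*, *Gpx4*, *Sephs2* and *Msrb1* the recoded UGA lies apart from that end. In *Txnrd1* and *Txnrd2* it stands 1 codon before the stop codon, so the UGA and the end of the CDS cannot be told apart there. On the 3′UTR of *Gpx1* there were 2.59 footprints, against 75.5 and 94.1 RNA counts. On that of *Txnrd1* there were 2.83 footprints, against 558 and 645 RNA counts. *Sephs2* had 4.84 footprints against 161 and 203 RNA counts. Counts are fractional, and a footprint on the last codons may fall partly on the counted 3′UTR, which was not tested.

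The remaining genes had 1 footprint on the 3′UTR or fewer. *Msrb1* had 1.0 footprint there against 92.7 and 96.2 RNA counts, and *Txnrd2* had 0.33 footprints against 9.08 and 19.3 RNA counts. For *Gpx4* only 13 nt were counted as 3′UTR, and these held 0 footprints and 0 RNA counts in both replicates, so its region after the stop codon cannot be read. Taking a count of 0 to allow up to 3 counts, the limit on the share of its CDS and 3′UTR footprints on these 13 nt is 1.91%.

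Had footprints followed RNA along the mRNA, the CDS footprints would give 492 on the 3′UTR of *Txnrd1*, 51.1 on that of *Sephs2* and 44.6 on that of *Gpx1*. The footprints seen there were fewer than these numbers in all 3 genes, also at the upper limit of their 95% Poisson intervals, 8.51, 11.4 and 8.14. Over the 6 genes together, *Gpx4* included, 11.6 footprints lay on the 3′UTR and 1845 on the CDS, a share of 0.624%. The 95% Wilson interval, which covers counting error only, was 0.354 to 1.10%. RNA gave 24.5% and 20.7% in replicates 1 and 2. Over all passing genes together the footprint share was 1.91%, beside 28.7% and 26.7% of RNA. By gene, the footprint shares of *Sephs2* (3.41%) and *Msrb1* (1.63%) lay above the median gene at 1.05%. Those of *Gpx1* (0.29%), *Txnrd1* (0.53%) and *Txnrd2* (0.48%) lay below it. The 95% Wilson intervals of *Sephs2* (1.45 to 7.84%) and *Gpx1* (0.0914 to 0.914%) did not hold the median gene. Those of *Msrb1* (0.288 to 8.66%), *Txnrd1* (0.175 to 1.59%) and *Txnrd2* (0.0359 to 6.15%) did, so their side cannot be told.

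The contrast between regions was the log2 of the 3′UTR to CDS ratio of footprints over the same ratio of RNA, and it needed at least 10 RNA counts on each region in both replicates and at least 1 footprint on each. Of the 6 genes 4 met this, and *Gpx4* and *Txnrd2* did not. *Sephs2* was at -3.40 ± 0.004, *Gpx1* at -4.11 ± 0.26, *Msrb1* at -4.94 ± 0.55 and *Txnrd1* at -7.44 ± 0.10 (SD, n = 2). The median of the 4 was -4.53, beside -4.43 over 5264 genes, whose middle part ran from -5.50 to -3.08. None of the 4 lay above -1, where 6.42% of the 5264 genes lay. The 4 genes lay on both sides of the median gene, with *Sephs2* and *Gpx1* above it and *Msrb1* and *Txnrd1* below it. With a pseudocount of 1 RPKM *Gpx1* also lay below the median gene, at -3.78 beside -3.22 over all genes. *Msrb1* and *Txnrd1* were then at -3.61 and -5.82, still below it, and *Sephs2* at -2.88, above it. The median of the 4 was -4.25 without RNA-seq replicate 1, beside -4.37 over all genes, and -4.82 without replicate 2, beside -4.49, so its side of the median of all genes depended on the replicate.

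*Txnrd1* was the lowest of the 4, below all but 2.68% of the 5264 genes. Genes with too few footprints on the 3′UTR for the contrast, including those with none, are not among these 5264. The rank of *Txnrd1* and the median over all genes therefore hold only among genes with enough footprints there. The interval of *Txnrd1* from the footprint count, -9.81 to -5.85, lay below that median. The intervals of the other 3, -5.05 to -2.16 for *Sephs2*, -6.63 to -2.45 for *Gpx1* and -10.25 to -2.47 for *Msrb1*, all held it. With so few footprints on the 3′UTR, differences among these 3 genes were not detectable at this depth.

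**Figure D4:**
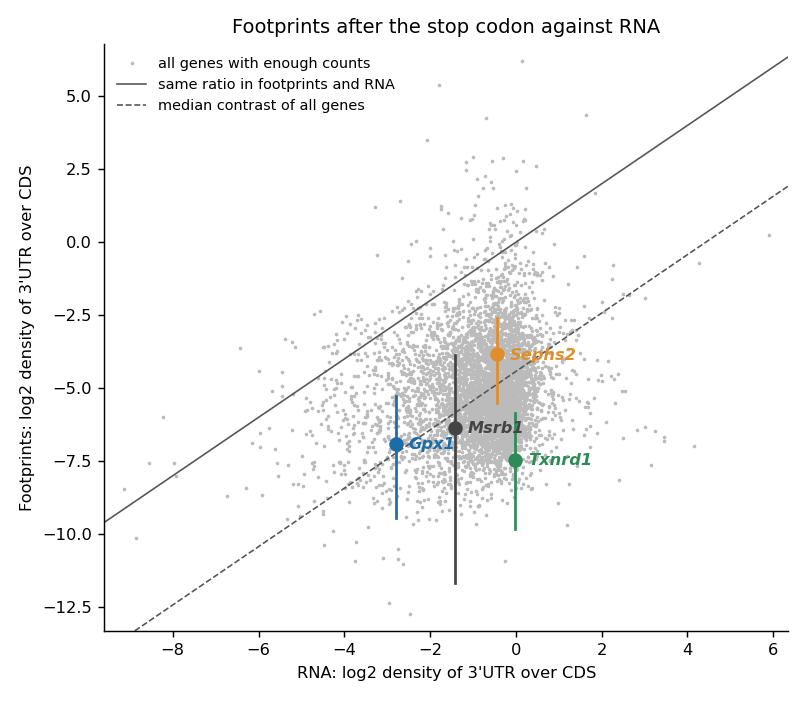
Each grey point is 1 of 5264 genes, with the log2 ratio of 3′UTR to CDS density in RNA (mean of 2 replicates) on the x axis and in footprints on the y axis. Coloured circles with 95% Poisson intervals are the 4 selenoprotein genes with enough counts, which lie below the solid line of equal ratios, with *Txnrd1* furthest from it and the others near the dashed line at the median contrast of -4.43.

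On the 5′UTR *Sephs2* had the highest footprint density relative to the CDS of the 6 genes. It had 62.3 footprints on the 140 nt counted as its 5′UTR, against 5.99 and 15.0 RNA counts. This is 44.5 footprints per 100 nt, beside 10.1 per 100 nt on its CDS, a density 4.40-fold higher and above that of 98.7% of 7496 passing genes with at least 1 footprint on the 5′UTR. *Sephs2* was the 1 of 3 such selenoprotein genes with a log2 density of 5′UTR over CDS above 1, beside 7.26% of all 7496. This comparison was made after its values were seen. A gene on the opposite strand covers this 5′UTR, and its part in the count was not tested.

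*Gpx1* and *Txnrd1* also had footprints before the start codon. *Gpx1* had 68.1 on 233 nt and *Txnrd1* 46.5 on 498 nt, and their densities relative to the CDS were -2.34 and -1.66 on the log2 scale, beside a median of -1.06. Both lay below the median gene by this measure, unlike *Sephs2* at 2.14. *Gpx4* had 0.93 footprints on 174 nt, and *Txnrd2* and *Msrb1* had 0 on 28 and 66 nt. RNA on the 5′UTR of *Gpx1* was 19.7 counts in replicate 1 and 60.9 in replicate 2, a log2 difference after scaling of 1.24 and above that of 97.7% of genes. In *Txnrd1*, a further 36 exon positions counted as neither CDS nor UTR held 19.5 footprints.

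GENCODE M21 marks a selenocysteine in each of the 24 selenoprotein genes sought, and 17 selenoprotein genes other than the 6 were found in the counts, under older symbols where needed. *Selenov* was not found in the counts. Of these 17 genes 12 passed the filters, and the deiodinases *Dio1*, *Dio2* and *Dio3*, the plasma carrier *Selenop* and the secreted peroxidase *Gpx3* had 0 CDS footprints. Translational efficiency was above 1 in 4 of the 12 and below -1 in 3, beside 20.8% and 21.1% of all passing genes, with a median of 0.16. The highest was *Selenok*, a protein of the endoplasmic reticulum membrane, at 1.83, for which only 119 nt or 40.8% of the annotated CDS positions were counted, and the lowest *Selenoo*, which transfers AMP to other proteins in mitochondria, at -1.54. On CDS RNA the median was 0.11, with *Selenos* highest at 1.61 and *Selenow* lowest at -1.82.

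*Selenow* and *Selenoh* also had the highest contrast between 3′UTR and CDS of the selenoprotein genes. *Selenoh* had 13.04 footprints on the 3′UTR beside 147 on the CDS, a contrast of -0.92 above 93.9% of genes. *Selenow* had 16.3 beside 86.6, a contrast of -1.03 above 93.5% of genes. Only *Selenoh* among the 11 selenoprotein genes with enough counts lay above -1, beside 6.42% of the 5264 genes. *Selenoi* was the lowest at -8.72, with 2 footprints on its 3′UTR.

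Grouping the 18 passing selenoprotein genes by the position of the codon, a choice made after the values were seen, placed *Txnrd1* and *Txnrd2* among 7 genes with at most 10 codons after it. Their median CDS ratio was 1.10, from -1.16 in *Selenoo* to 1.61 in *Selenos*, with 4 above 1 and 1 below -1, beside 18.3% and 19.5% of all passing genes. That median is the value of *Selenok*, which had 43.7 CDS footprints on the 119 nt counted. *Selenoi*, at 1.12, also lay only just above 1. *Gpx1*, *Gpx4*, *Sephs2* and *Msrb1* fell among the other 11, with a median of 0.11, from -1.82 in *Selenow* to 1.83 in *Gpx4*, with 1 above 1 and 1 below -1, beside the same 18.3% and 19.5%. In translational efficiency the medians were 1.34 and 0.38, and 4 of the 7 and 3 of the 11 lay above 1, beside 20.8% of all passing genes. Below -1 lay 1 of the 7 and 2 of the 11, beside 21.1%. The ranges of both groups overlap over most of their length, and the difference was not tested.

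**Figure D5:**
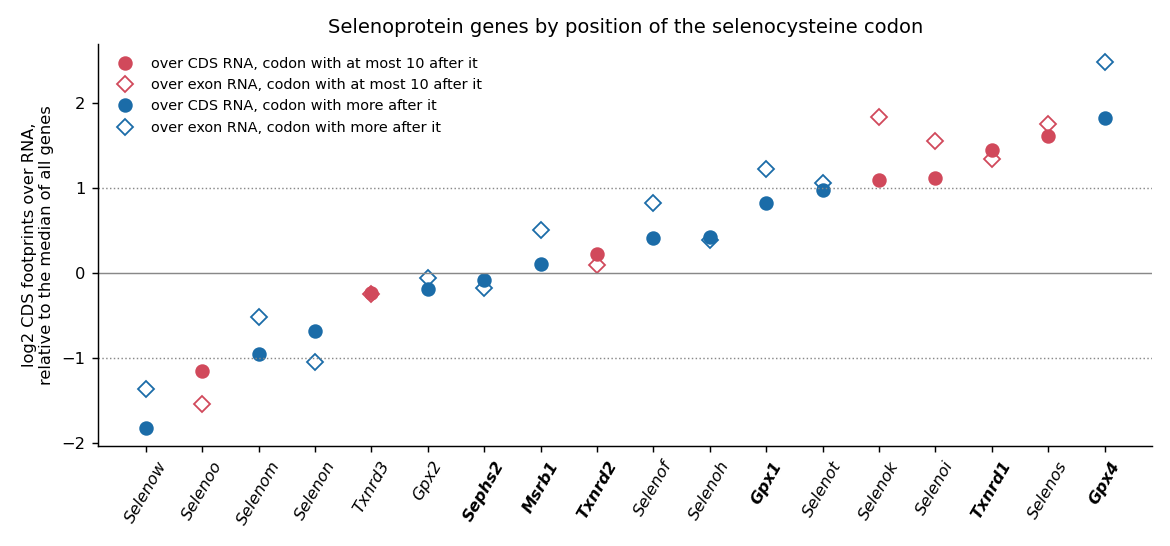
Log2 CDS footprints over CDS RNA (filled circles) and over exon RNA (open diamonds), each relative to the median of all genes, for the 18 passing selenoprotein genes in order of the CDS ratio, with dotted lines at 1 and -1 and the 6 genes of the text in bold. Red marks genes with at most 10 codons after the selenocysteine codon and blue the others, and both colours occur from below -1 to above 1.

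Genes listed for the synthesis and insertion of selenocysteine were next examined, and its tRNA was not measured. All 9 passed, with a median translational efficiency of 0.18, 1 above 1 and 1 below -1, beside 20.8% and 21.1% of all passing genes. The highest was *Sephs1*, the relative of *Sephs2* without selenocysteine, at 1.54, and the lowest *Secisbp2l*, a paralogue of the SECIS-binding protein gene, at -1.12. *Sephs1* was thus above *Sephs2*, at -0.17, and on CDS RNA the values were 0.72 and -0.09.

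Of 7 enzymes without selenocysteine that are related to the 6 in sequence or function, 4 passed, with a median of 1.42, and all 4 lay above 1, beside 20.8% of all passing genes. They were *Sephs1*, *Gpx8* at 1.45, *Msrb3* at 1.39 and the glutathione reductase gene *Gsr* at 1.14, and on CDS RNA 3 of the 4 were above 1, beside 18.3% of all passing genes. The value of *Msrb3* rests on 14.3 CDS footprints and on RNA of 2.19 and 2.14 RPKM. These 4 genes were not placed against the median of the 4829 genes, which lay 0.39 higher. *Gpx7* and *Msrb2* had 0 CDS footprints and *Msra* had 9. Of 12 genes of the thioredoxin and glutathione systems 11 passed, with a median of 0.70, 5 above 1 and 2 below -1, beside 20.8% and 21.1% of all passing genes. The thioredoxin gene *Txn1*, which encodes the substrate of *Txnrd1*, was highest at 2.64, and *Gclm*, a subunit of the enzyme that starts glutathione synthesis, lowest at -1.32.

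The genes nearest to each selenoprotein gene were sought over 4 measures, log2 RPKM of footprints and of mean RNA on the CDS and on the 3′UTR, among genes with at least 1 footprint on each region. *Gsr* was the second nearest of 5630 genes to *Txnrd1*, at a distance of 0.47, after *Slc25a24* at 0.38. *Pdap1* and *Pfdn1* were nearest to *Gpx1*, at 0.38 and 0.45. *Diablo* and *Prpf38b* were nearest to *Msrb1*, at 0.17 and 0.28, and *Lyrm5* and *Rap1gds1* to *Sephs2*, at 0.23 and 0.34. *Pank1* and *Lsm11* were nearest to *Txnrd2*, at 0.29 and 0.35, where 1 of the 4 measures rests on its 0.33 footprints on the 3′UTR, and *Gpx4* had no value on the 3′UTR to compare.

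Markers of the labelled cell type were high, and those of other cell types were lower, with *Cd68*, an immune marker, the highest of them. All 7 keratinocyte markers passed, led by *Krt5* with 7965 and 9483 RPKM of RNA and 4640 RPKM of footprints. The 6 fibroblast or feeder markers summed to 9.93 and 15.5 RPKM of RNA, led by *Col3a1* at 3.89 and 5.49 RPKM, and to 0.870 RPKM of footprints, with 5 of the 6 at 0 there. Their sum was thus higher in replicate 2, as was the RNA of *Gpx1*, *Gpx4*, *Msrb1* and, by less, *Txnrd2*. The part of these markers in the values of these genes was not tested. Of the immune markers *Ptprc* and *Cd3e* had 0 footprints while *Cd68* had 35.1 and 37.3 RPKM of RNA and 10.3 RPKM of footprints. The 3 melanocyte markers summed to 5.35 and 5.44 RPKM of RNA, nearly all of it *Pmel*, and both endothelial markers had 0 footprints.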

How the data were processed

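The estimated counts per gene for its exons and for each of its regions were deposited by the authors, who trimmed reads with TrimGalore, used Bowtie2 2.4.1 to drop footprint reads that matched tRNA, ribosomal or mitochondrial RNA, aligned to GRCm38 with STAR 2.6.1 and counted with Plastid 0.4.7. The RPKM values deposited by the authors were used only in an alternative filter, and RPKM was otherwise computed from counts, counted length and the sum of exon counts. The protocol includes cycloheximide, and its effect on footprint positions was not tested. The annotation release used for counting is not given in the sources used here.

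The genes named are the 6 selenoprotein genes, the highest, lowest and missing genes of the listed groups, the 2 nearest genes of each, and markers. Others were chosen after their values were seen. The members and lists were chosen with earlier results of these data known. The long-read samples, wild-type libraries and further SCC libraries were not analysed here. Python 3.11.15, numpy 2.4.6, pandas 2.3.3, scipy 1.17.1, matplotlib 3.10.9, blastn 2.17.0, R 4.3.3, DESeq2 1.42.0 and edgeR 4.0.16 were used.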

Additional observations from a re-analysis of the deposited data

How the results depend on the processing

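No paired analysis was possible because all 3 libraries come from SCC and no replicate number ties the footprint library to an RNA-seq library. Under all 11 alternatives run for it, the median translational efficiency of the 6 genes stayed above 0. It was 1.02 when counts were not divided by counted length and 0.47 when the median of all genes, but not the choice of the 6, was limited to the 4829 genes that reached 100 counts in each library. This raised that median by 0.39. The number of the 6 genes above 1 was then 1 and not 3, beside 908 of 4829 genes (18.8%) and not 2047 of 9863 (20.8%). A pair of alternatives was chosen after seeing the data. Without *Gpx4* the median was 0.50. With the limit of 100 counts also on the 6 genes, 4 were kept, their median was 0.89 and 1 lay above 1.

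The median CDS ratio was 0.17 with the limit on all genes alone, 0.78 over the 4 genes that met it and 0.22 without *Gpx4*. The limit raised the median of all genes by 0.35 and gave 2 of the 6 genes above 1, beside 781 of 4829 genes (16.2%) and not 1802 of 9862 (18.3%). The median contrast was -3.69 with a pseudocount of 1 RPKM, beside -3.22 over all genes, and -4.11 both with at least 100 counts (3 genes) and with no filter (5 genes), beside -4.76 and -4.42 over all genes. With no filter *Txnrd2* entered on 0.33 footprints, while the value over all genes still needed at least 1 footprint and 10 RNA counts on each region. These sets are unlike, so no side is given for that choice. The median of the genes kept was above that of all genes with at least 100 counts and below it with the pseudocount. It changed side between RNA-seq replicates (-4.82 to -4.25). Of 125 values of single genes under alternatives, 7 moved up and 18 down by more than the SD over replicates, and 0 called values changed sign. Leaving out a replicate or changing the size factors can hardly move a value by that measure, so the other values do not show stability. The cause of these changes was not tested beyond the shift of the median. With 0 to 4.84 footprints on each 3′UTR, depth limits the contrast.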
